A study of Mus musculus with 13 samples.

Results

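Adipocyte genes were followed across 13 melanomas of HGF/SF transgenic mice through 18 probe sets of 10 genes, out of 22690 probe sets on the arrays. The members were fixed by probe set identifier: Adipoq, Cfd, Cidec, Retn and Pck1 have 1 probe set each, Car3, Lpl and Scd1 have 2 each, Cd36 has 3 and Fabp4 has 4. All 18 were found in the data, and no filter on low values was applied. The gene behind each identifier was given with the list of members and is not paired with it in the deposited data.

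Each array carried RNA of 1 cutaneous melanoma from a mouse with an inactivating mutation of ARF or INK4a, the products of the Cdkn2a locus. By genotype label there were 5 ARF heterozygous, 1 ARF null, 3 INK4a heterozygous and 4 INK4a null tumors, so that 6 were ARF-deficient and 7 INK4a-deficient. All of the mice carried the HGF/SF transgene under a metallothionein promoter, had a background of about 90% FVB/N and 10% C57BL/6, and received 1 dose of UV at an age of 3.5 days. There was no unirradiated tumor, no tumor with intact Cdkn2a and no normal skin or fat among the arrays, and the labels do not tell which mouse a tumor came from, so the p-values below measure the spread between these tumors. Tumors are named by genotype and label number. For the 6 ARF-deficient tumors the title gives Ink4a and the genotype label gives ARF, and the latter was followed.

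White adipocytes store triglyceride in a single large lipid droplet and secrete hormones, and the skin rests on a layer of them. Fatty acids reach the cell through lipoprotein lipase, surface transporters and intracellular carriers, and the program as a whole is driven by the nuclear receptor PPARG together with C/EBP factors. Some of these genes mark adipocytes narrowly (Adipoq, Cfd, Cidec and, in mice, Retn), whereas others are shared: Fabp4 and Cd36 with endothelium, Lpl and Cd36 with macrophages, Car3 with skeletal muscle, Scd1 with sebaceous glands, and Pck1 with liver and kidney.

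Promoter windows of 250 bases before to 50 bases after the start site were in the RefSeq table (GRCm38.p6) for 6 of the 10 genes, as 7 windows. They were searched for the nuclear receptor core site AGGTCA, which reads TGACCT on the other strand, and for the C/EBP palindrome TTGCGCAA, which is the same on both strands. The core site lay in 1 of the 7 windows, against 16.3% of all 32851 promoter windows of that length, and the palindrome lay in 0 of the 7, against 0.183% of all. The windows of Adipoq, the gene against which the others are set below, and of Cd36, the member with the core site (in capitals, 228 bases before the start), are given 5′ to 3′ on the strand of the gene. The Adipoq window is at chr16:23146286-23146585 on the plus strand, at the start of a gene that RefSeq places at chr16:23146536-23157968, and the Cd36 window is at chr5:17835847-17836146 on the minus strand, within the gene's span of chr5:17781690-17888959.
Adipoq: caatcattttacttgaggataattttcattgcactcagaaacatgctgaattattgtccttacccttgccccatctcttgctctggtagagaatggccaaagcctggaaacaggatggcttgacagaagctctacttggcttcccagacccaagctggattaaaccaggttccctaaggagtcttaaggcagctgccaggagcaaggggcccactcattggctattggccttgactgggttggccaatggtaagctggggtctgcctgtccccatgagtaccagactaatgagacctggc
Cd36: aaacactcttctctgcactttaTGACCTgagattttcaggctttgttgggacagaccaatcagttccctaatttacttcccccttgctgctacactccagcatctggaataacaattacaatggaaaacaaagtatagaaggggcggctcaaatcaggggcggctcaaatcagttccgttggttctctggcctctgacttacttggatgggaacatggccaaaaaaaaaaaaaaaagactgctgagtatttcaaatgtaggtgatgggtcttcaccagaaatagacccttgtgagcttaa
These letters are a description of the sequence, and binding was not measured.

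Every probe set had been centered on its median over the 13 tumors before deposition, and the log values are read here as log2, so 0 is the middle tumor, 1 is 2-fold above it, and levels of different genes cannot be compared. A gene's value is the mean of its probe sets. A tumor's adipocyte level is the median of its 10 gene values, and a probe set is called raised at 1 or more and lowered at -1 or less.

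Adipocyte transcripts stood highest in 2 tumors, ARF heterozygous 12 and INK4a null 7.2. The adipocyte level was 2.49 in tumor 12 and 1.62 in tumor 7.2. It was 0.60 in ARF heterozygous 13, 0.18 in ARF heterozygous 9, 0.08 in INK4a null 2.2, 0.05 in INK4a null 3, -0.02 in ARF heterozygous 14, -0.07 in INK4a heterozygous 15, -0.16 in ARF null 10 and -0.18 in INK4a null 1.2. The lowest levels were -0.41 in INK4a heterozygous 6.2, -0.77 in ARF heterozygous 8 and -1.14 in INK4a heterozygous 5.2. Which of the top pair stood higher depended on the scaling. After quantile normalization tumor 12 was at 1.48 and tumor 7.2 at 1.94. Tumor 7.2 was then above tumor 12 at 7 of the 10 genes, against 2 in the deposited values and 1 with array medians set to 0. Quantile normalization was applied to values already centered per probe set, and it gives every tumor the same spread. In the deposited values the SD over all probe sets was 0.62 in tumor 12 and 0.48 in tumor 7.2. Both genotypes contributed a tumor at the top of the order and a tumor near its bottom. In bulk tumor RNA, fewer adipocytes and less RNA of these genes per cell cannot be told apart.

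In tumor 12, 17 of the 18 probe sets were raised, against 5.17% of all 22626 probe sets tested. Tumor 7.2 had 15 of 18 raised, against 1.51% of all. The next counts were 4 in tumor 13, 2 in tumor 9 and 1 each in tumors 1.2, 2.2 and 3, and no member was raised in the other 6 tumors. Both tumors together were raised at 15 of the 18 members, compared with 0.566% of all probe sets (128 of 22626). A value of 2 or more in both was reached by 5 of the 18 members and by 19 of all 22626 probe sets. Tumors 12 and 7.2 were the 2 highest of 13 at 17 of the 18 members, against 1.4% of all. After quantile normalization, 13 members were raised in tumor 12 and 16 in tumor 7.2, and both were the 2 highest at 14. No test is given for these counts, since both tumors were picked out by these same values.

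**Figure D1:**
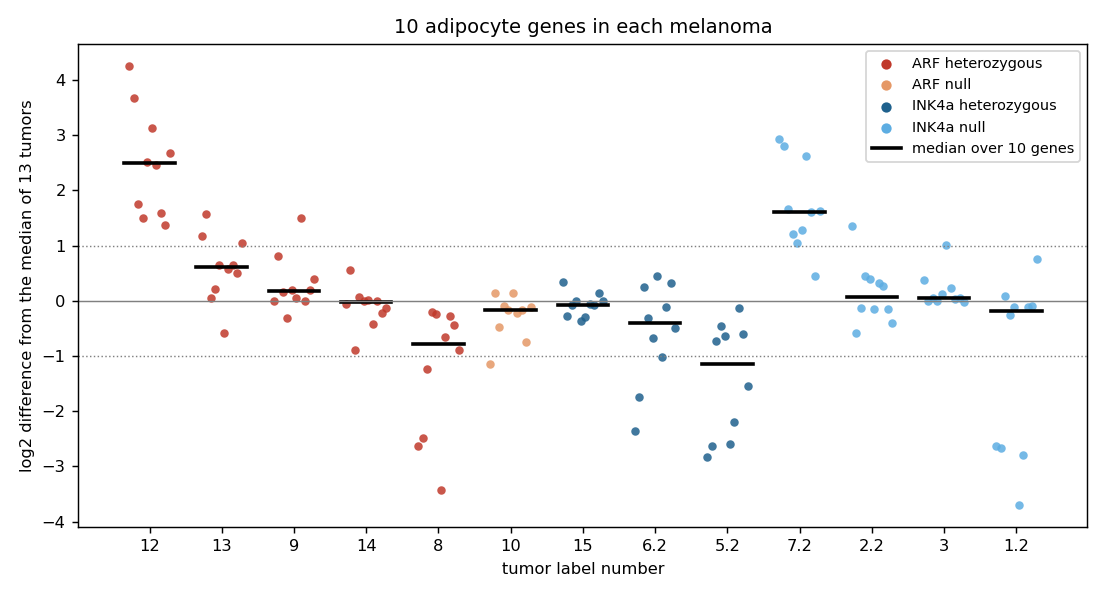
Values of the 10 genes (points, log2 relative to the median of the 13 tumors) in each tumor, by label number and colored by genotype label; black bars are medians over the 10 genes and dotted lines mark 1 and -1. The median bars of tumors 12 (2.49) and 7.2 (1.62) lie above 1, that of tumor 5.2 (-1.14) lies below -1, and in tumor 1.2 the points fall into a group near 0 and a group below -2.

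Among the secreted products, Adipoq encodes adiponectin, a hormone made almost only by adipocytes. Its probe set (1422651_at) gave 4.26, 1.17, -0.05, -2.64 and 0.00 in ARF heterozygous tumors 12, 13, 14, 8 and 9, and -1.15 in ARF null 10. In INK4a heterozygous 15, 5.2 and 6.2 it gave 0.35, -2.83 and -2.37, and in INK4a null 1.2, 2.2, 3 and 7.2 it gave -2.64, 1.36, 0.37 and 2.93. Both genotypes spanned nearly the whole range and overlapped throughout. From its lowest tumor, 5.2, to its highest, 12, the distance was 7.09, a 136-fold span, and tumors 12 and 7.2 were 19.1-fold and 7.60-fold above the median tumor. By group, the order of the Adipoq means was ARF heterozygous 0.55 ± 2.50 (SD, n = 5), INK4a null 0.51 ± 2.34 (SD, n = 4), ARF null -1.15 (1 tumor) and INK4a heterozygous -1.62 ± 1.72 (SD, n = 3), and no neighbors in this order differed by more than the SD within the groups.

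Cfd encodes adipsin, a complement protease secreted by fat cells, and its probe set (1417867_at) followed the same tumors. The ARF heterozygous tumors 12, 13, 14, 8 and 9 were at 3.68, 1.57, 0.55, -2.48 and 0.80, and ARF null 10 was at 0.15. The INK4a heterozygous tumors 15, 5.2 and 6.2 were at -0.27, -2.63 and -1.74, and the INK4a null tumors 1.2, 2.2, 3 and 7.2 at -2.67, -0.58, 0.00 and 2.80. All but 1 of the INK4a-deficient tumors were at or below the median, whereas all but 1 of the ARF-deficient tumors were above it, and the ranges nevertheless overlapped. Tumor 12 was 12.8-fold and tumor 7.2 was 6.96-fold above the median tumor.

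Retn encodes resistin, an adipocyte hormone in mice. Probe set 1449182_at was at 2.52, 0.64, 0.00, -0.25 and 0.19 in ARF heterozygous 12, 13, 14, 8 and 9, and at -0.16 in ARF null 10. It was at -0.10, 0.40, 0.13 and 1.05 in INK4a null 1.2, 2.2, 3 and 7.2, and at -0.37, -0.64 and -0.68 in INK4a heterozygous 15, 5.2 and 6.2. The 3 INK4a heterozygous tumors were the 3 lowest of the 13, below every other tumor. In the deposited values Retn was 2.76-fold higher in tumor 12 than in tumor 7.2, and after quantile normalization 1.15-fold.

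Among the genes of lipid storage, Cidec encodes a lipid droplet protein that promotes the growth of large droplets. Its probe set (1452260_at) was at 1.50 in tumor 12 and 1.21 in tumor 7.2, and no other tumor exceeded the 0.45 of INK4a null 2.2. The remaining 10 tumors lay between -0.45 (tumor 5.2) and 0.22 (tumor 13), a narrow band in which the genotypes were mixed. Scd1 encodes the desaturase that makes monounsaturated fatty acids, and its probe sets went together only loosely (r = 0.58 over 13 tumors). Probe set 1415964_at was highest in tumors 12 (1.34) and 7.2 (0.91), but 1415965_at was at 1.42 in tumor 12 and at 0.00 in tumor 7.2, below the 0.66 of INK4a heterozygous 6.2. Scd1 was the only gene of the 10 that tumor 7.2 did not raise to 1, with a mean of 0.45.

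Uptake and transport of fatty acids involve Lpl, Cd36 and Fabp4. Lpl, the lipase that frees fatty acids from circulating lipoproteins, had means over its 2 probe sets of 2.47, 0.57, -0.41, -0.65 and 1.50 in ARF heterozygous 12, 13, 14, 8 and 9, and -0.22 in ARF null 10. Its means were -0.06, -2.20 and -1.01 in INK4a heterozygous 15, 5.2 and 6.2, and -2.80, 0.32, 0.23 and 2.63 in INK4a null 1.2, 2.2, 3 and 7.2. In the deposited values Lpl and Pck1 were the 2 genes at which tumor 7.2 stood above tumor 12. The 2 members raised in tumor 9 were both Lpl probe sets (1415904_at at 1.59 and 1431056_a_at at 1.41).

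Cd36, a fatty acid transporter of the cell surface, had means over its 3 probe sets of 2.69, 1.04, -0.12, -0.89 and 0.39 in ARF heterozygous 12, 13, 14, 8 and 9, and -0.12 in ARF null 10. Its means in INK4a null 1.2, 2.2, 3 and 7.2 were 0.76, -0.41, -0.02 and 1.63, and in INK4a heterozygous 15, 5.2 and 6.2 they were 0.00, -1.54 and -0.49. Tumor 1.2 was thus the fourth highest for Cd36 (0.99, 1.01 and 0.29 at 1423166_at, 1450883_a_at and 1450884_at), although it was at -2.64 for Adipoq and -2.67 for Cfd.

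Fabp4, the fatty acid carrier protein of adipocytes, was represented by 4 probe sets. Their profiles went together to different degrees (r from 0.68 to 0.996 over 13 tumors), and their amplitudes differed. Probe sets 1417023_a_at and 1451263_a_at gave nearly the same profile (r = 0.996 over 13 tumors), with 2.11 and 2.21 in tumor 12, 1.85 and 1.83 in tumor 7.2, and -2.05 and -2.27 in ARF heterozygous 8. At 1424155_at tumor 7.2 (2.72) was above tumor 12 (2.18), and tumor 8 was at -0.36. The fourth, 1425809_at, was also highest in tumors 12 (0.50) and 7.2 (0.22). It spanned only -0.32 to 0.50 and was the single member not raised in any tumor. Its SD over the 13 tumors was 0.23, the only one of the 18 below the median SD of all probe sets, 0.27. The median SD of the members was 1.17, and 11 of the 18 were among the 5% of probe sets with the largest SD.

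The metabolic enzymes were Pck1 and Car3. Pck1, the enzyme that feeds glycerol synthesis in fat cells, was at 1.60 in tumor 7.2 and 1.59 in tumor 12 at probe set 1423439_at, then at 0.64 in tumor 13 and 0.28 in tumor 2.2. The other 9 tumors lay between -0.27 (tumor 8) and 0.04 (tumor 3), so Pck1 varied almost only at its upper end. Car3, a carbonic anhydrase abundant in fat and in slow muscle, had the widest span of all members: 1449434_at ran from -5.36 in INK4a null 1.2 to 2.78 in ARF heterozygous 12, a distance of 8.13 or 281-fold. The same probe set was at -4.65 in tumor 8 and -3.10 in tumor 5.2, while the remaining 9 tumors lay between -0.52 and 1.45. For Car3, tumor 12 was 3.58-fold above tumor 7.2 in the deposited values (means 3.13 and 1.29) and 1.26-fold above it after quantile normalization, and INK4a null 3 followed at 1.02.

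**Figure D2:**
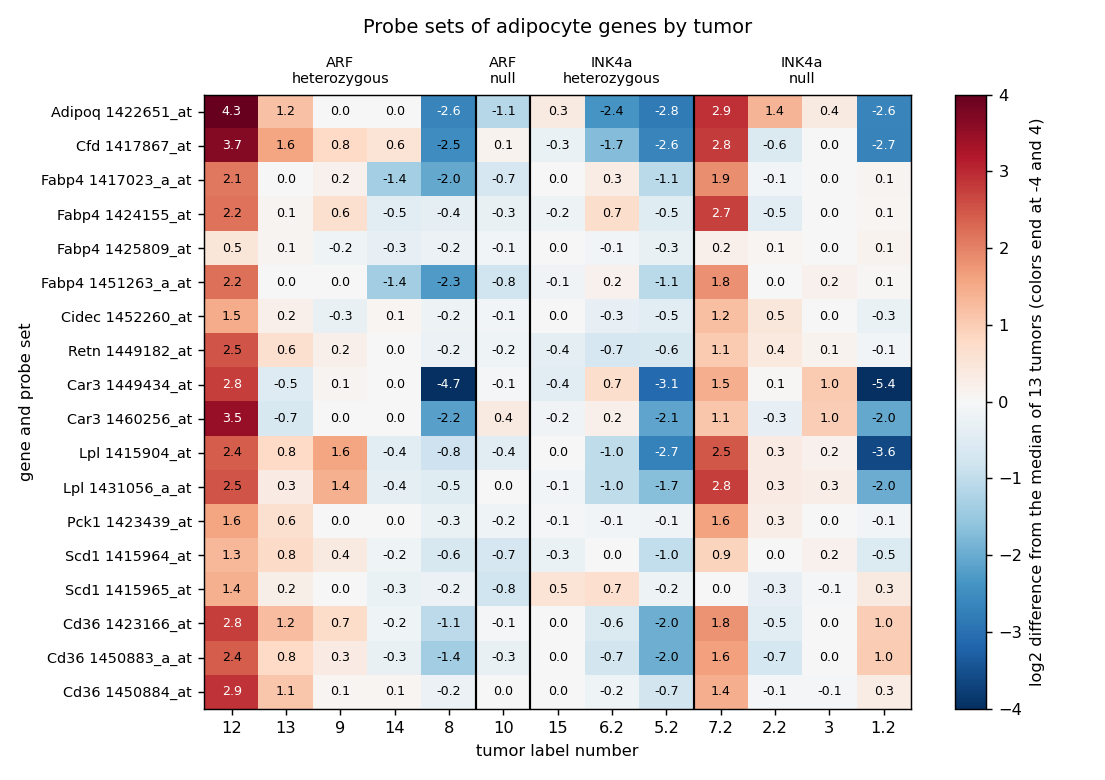
Values of the 18 probe sets (vertical axis) in the 13 tumors (horizontal axis, grouped by genotype label), as log2 relative to each probe set's median, on a color scale centered on 0 and ending at -4 and 4. The columns of tumors 12 and 7.2 are high along nearly their whole length, tumors 5.2 and 8 are below 0 throughout, and tumor 1.2 is low at some genes and not at others.

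At the low end of the order fewer members passed the threshold than at the high end. Lowered values were held by 10 of the 18 members in INK4a heterozygous 5.2, against 3.25% of all probe sets there. These were all the members lowered in any tumor. Cidec, Retn, Pck1, Scd1, Fabp4 1424155_at and 1425809_at, and Cd36 1450884_at stayed above -1 in every tumor. In tumors 5.2 and 8 all 10 genes were below 0. ARF heterozygous 8 had 8 of 18 lowered, against 3.96% of all, and INK4a null 1.2 had 6 of 18, against 3.96% of all. Tumor 6.2 had 4 lowered, tumor 14 had 2 and tumor 10 had 1, and no member was lowered in the other 7. In tumor 1.2 the lowered probe sets belonged to Adipoq, Cfd, Car3 and Lpl. Fabp4 (mean 0.09), Pck1 (-0.11, beside -0.14 in tumor 5.2) and Scd1 (-0.10) lay near the median tumor and Cd36 above it. The mean over the 10 genes in tumor 1.2, -1.15, therefore lay far from their median, -0.18.

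Set against Adipoq over the 13 tumors, the other genes went with it to different degrees (9 relations, p from 100000 permutations, two-sided, Benjamini-Hochberg adjusted over the 9). The closest was Cfd, with r = 0.93 (permutation p = 1e-05, the smallest that 100000 permutations can give; adjusted p = 4.5e-05) and rho = 0.79 (p = 0.0019). Cidec followed with r = 0.91 (permutation p = 2e-05) and rho = 0.89 (p = 0.00015), and Lpl with r = 0.89 (permutation p = 6e-05) and rho = 0.91 (p = 4e-05). Without the 2 tumors farthest from the median of Adipoq, r was 0.85 for Cfd, 0.83 for Cidec and 0.79 for Lpl. Within the 6 ARF-deficient tumors these correlations were 0.97, 0.90 and 0.86, and within the 7 INK4a-deficient tumors 0.93, 0.92 and 0.95.

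Retn (r = 0.88, permutation p = 2e-05; rho = 0.84, p = 0.00064) and Pck1 (r = 0.87, permutation p = 2e-05; rho = 0.92, p = 5e-05) kept r = 0.78 and 0.74 without these 2 tumors. Car3 had r = 0.81 (permutation p = 0.00092) and rho = 0.63 (p = 0.0242), and r = 0.66 without them. Looser relations were found for Cd36 (r = 0.79, permutation p = 0.00126; rho = 0.68, p = 0.0131), Fabp4 (r = 0.75, permutation p = 0.00289; rho = 0.53, p = 0.0664) and Scd1 (r = 0.74, permutation p = 0.00314; rho = 0.67, p = 0.0138). Without the 2 tumors, r fell to 0.48 for Cd36, 0.34 for Fabp4 and 0.46 for Scd1, so these 3 relations rested in large part on them. Within the INK4a-deficient tumors r was 0.57, 0.64 and 0.52 for these genes, and within the ARF-deficient tumors 0.98, 0.93 and 0.93; the difference between the genotypes was not tested. The largest adjusted p of the 9 was 0.00314 for r and 0.0664 for rho. The value for Scd1 is a mean of 2 probe sets that differed in their relation to Adipoq. Probe set 1415964_at had r = 0.88 and rho = 0.87, and 1415965_at had r = 0.40 and rho = 0.20. Single probe sets were not tested.

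**Figure D3:**
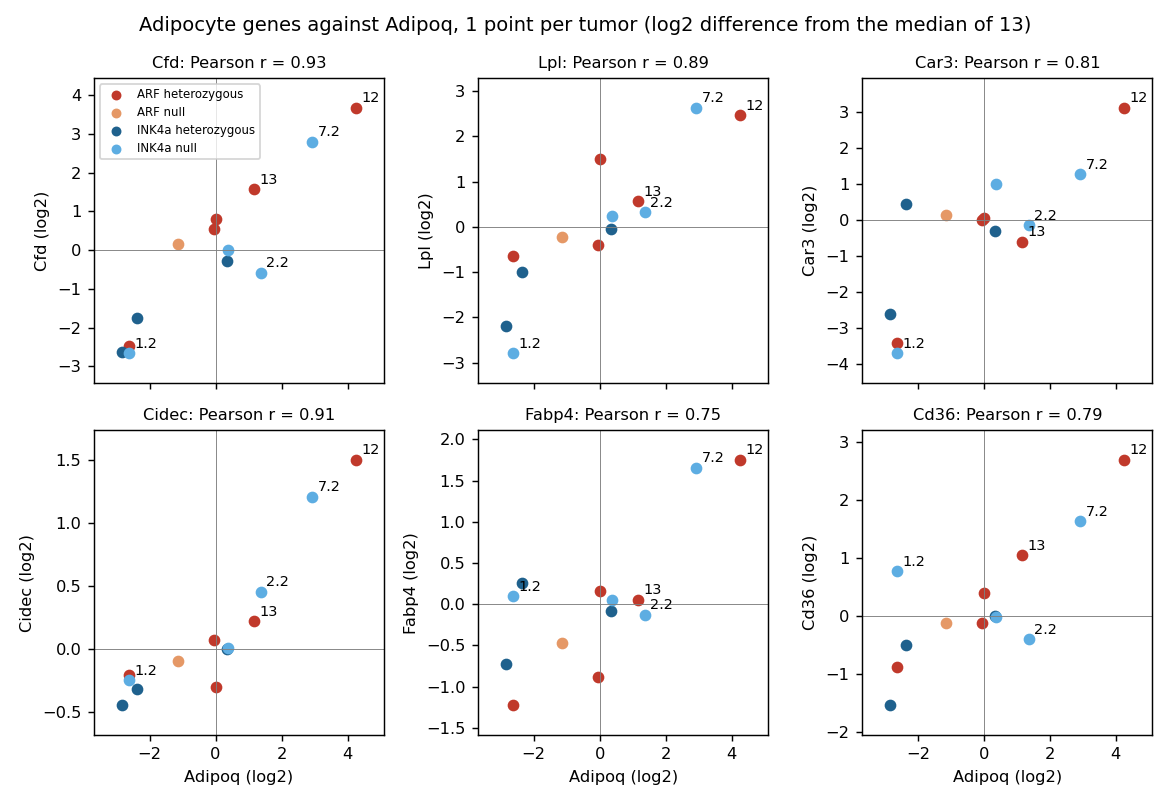
Values of other adipocyte genes (vertical axes) against Adipoq (horizontal axis), both as log2 relative to the median tumor, with 1 point per tumor colored by genotype label and 5 of the tumors numbered. Cfd and Lpl rise with Adipoq, with exceptions. Tumor 2.2 is at 1.36 for Adipoq and -0.58 for Cfd. Tumors 8 and 1.2 are both at -2.64 for Adipoq, but at -0.65 and -2.80 for Lpl. Cd36 in tumor 1.2 lies well above the tumors with like Adipoq values.

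The 45 pairs among the 10 genes had correlations between 0.59 and 0.95, with a median of 0.80; these describe 13 shared arrays. Across all probe sets, 104 of 22625 (0.460%) had r of 0.8 or more with Adipoq, and 9 of the 17 other members were among them. The median r was 0.81 over those members and -0.05 over all. Cfd ranked first of all 22625 probe sets and Cidec held the third rank. Outside the members, the probe sets most like Adipoq were 1448881_at and 1427183_at, each with r = 0.91 over the 13 tumors, whose genes are not paired with them in the data.

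Whether ARF-deficient and INK4a-deficient melanomas, the genotypes that the study set against each other, differed in these genes was tested with limma over all 22626 probe sets. No member passed an adjusted p under 0.05 (Benjamini-Hochberg), and 0% of all probe sets did. At an unadjusted p under 0.05 there were 0 of the 18 members and 4.93% of all probe sets (1115). The difference, ARF-deficient minus INK4a-deficient, was above 0 for 13 members and below 0 for 5, with a median of 0.39 beside 0.01 for all probe sets. As the genes are correlated, the 18 members are not separate observations. With quantile normalization 10 members were above 0 and 8 below, with a median of 0.10. The adipocyte level averaged 0.39 ± 1.13 (SD) over the 6 ARF-deficient tumors. Over the 7 INK4a-deficient tumors it averaged -0.01 ± 0.83 (SD).

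The size of the difference, whatever its sign, had a median of 0.48 over the members and 0.11 over all probe sets, but the errors were larger too. Cfd had the largest, 1.44 with a standard error of 1.002 (95% interval -0.73 to 3.61, limma adjusted p = 0.891), followed by 1.13 with a standard error of 0.90 for Lpl 1415904_at (limma adjusted p = 0.893). Adipoq differed by 0.67 with a standard error of 1.18 (95% interval -1.87 to 3.21, limma adjusted p = 0.944). At the other end stood Fabp4 1451263_a_at, with -0.52 and a standard error of 0.63 (limma adjusted p = 0.926). The median standard error of a member was 0.61, against 0.15 for all probe sets, and with these numbers of tumors even the difference of Cfd could not be told from 0. The tumors of the genotypes overlapped at all 18 members; 0.11% of all probe sets (25) did not overlap. The exact Mann-Whitney test, named in the methods and two-sided, gave a smallest member p of 0.101, for Cfd, where the smallest that 6 against 7 tumors allow is 0.00117; 0 members and 782 of all probe sets were under 0.05, and 0 after adjustment.

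Part of that error came from tumors 12 and 7.2, the highest at most members. Without both, chosen after the data were seen, the median standard error of the members was 0.40, beside 0.15 for all probe sets. The median difference of the members was then 0.17, and 0 members passed the adjusted threshold. Cfd then differed by 1.44 with a standard error of 0.75 (limma adjusted p = 0.784) and Adipoq by 0.43 with 0.92 (limma adjusted p = 0.954). The sign of the median difference rested on 1 tumor: without tumor 12 alone it was -0.14. The median was reversed as well, to -0.17, with 4 members higher and 14 lower, when the beta-actin ratio described below was a covariate.

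Between INK4a null (n = 4) and INK4a heterozygous (n = 3) tumors, 0 members passed the adjusted threshold in limma, against 0.128% of all probe sets (29), and 0 members had an unadjusted p under 0.05, against 14.1% of all (3185). The null tumors were higher at 17 of the 18 members, by a median of 0.71 beside 0.04 for all probe sets, the exception being Scd1 1415965_at at -0.35. The members go together, with a median r of 0.80 between genes over the 13 tumors, so the 17 are not separate observations. With the beta-actin ratio described below as covariate, 10 members were higher and 8 lower, the median was 0.078 and Adipoq was higher by 0.59. Adipoq was higher by 2.12 with a standard error of 1.56 (95% interval -1.28 to 5.53, limma adjusted p = 0.604), and Cd36 1423166_at by 1.42 with 0.83 (limma adjusted p = 0.489). The groups did not overlap at 2 members, Retn and Fabp4 1425809_at, against 11.2% of all probe sets, a share near the background. Without tumors 12 and 7.2 the median was 0.31, and Retn, at 0.70 with a standard error of 0.23 (limma adjusted p = 0.281), was the only member at an unadjusted p under 0.05.

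At equal zygosity, ARF heterozygous (n = 5) against INK4a heterozygous (n = 3) tumors gave 0 members past the adjusted threshold in limma, with 0.00442% of all probe sets (1) past it. This comparison shares the 3 INK4a heterozygous arrays with the one above, so likeness between them is no separate evidence. Retn was the 1 member at an unadjusted p under 0.05, against 13.1% of all probe sets (2954): it was 1.18 higher in the ARF tumors with a standard error of 0.53 (95% interval 0.01 to 2.36, limma adjusted p = 0.379). Its means were 0.62 ± 1.11 (SD, n = 5) and -0.56 ± 0.17 (SD, n = 3). It was also the only member at which these groups did not overlap, as 7.85% of all probe sets did not. The ARF tumors were higher at 17 of 18 members, again not separate observations, by a median of 0.78 beside 0.04 for all probe sets. Cfd had the largest difference, 2.37 with a standard error of 1.36 (limma adjusted p = 0.487). With the beta-actin ratio as covariate the direction turned: 5 members were higher and 13 lower, by a median of -0.15, and Cfd was at -0.12. The ratio itself was partly aligned with these groups, as given below. Without tumors 12 and 7.2, 11 of 18 were higher, by a median of 0.35.

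**Figure D4:**
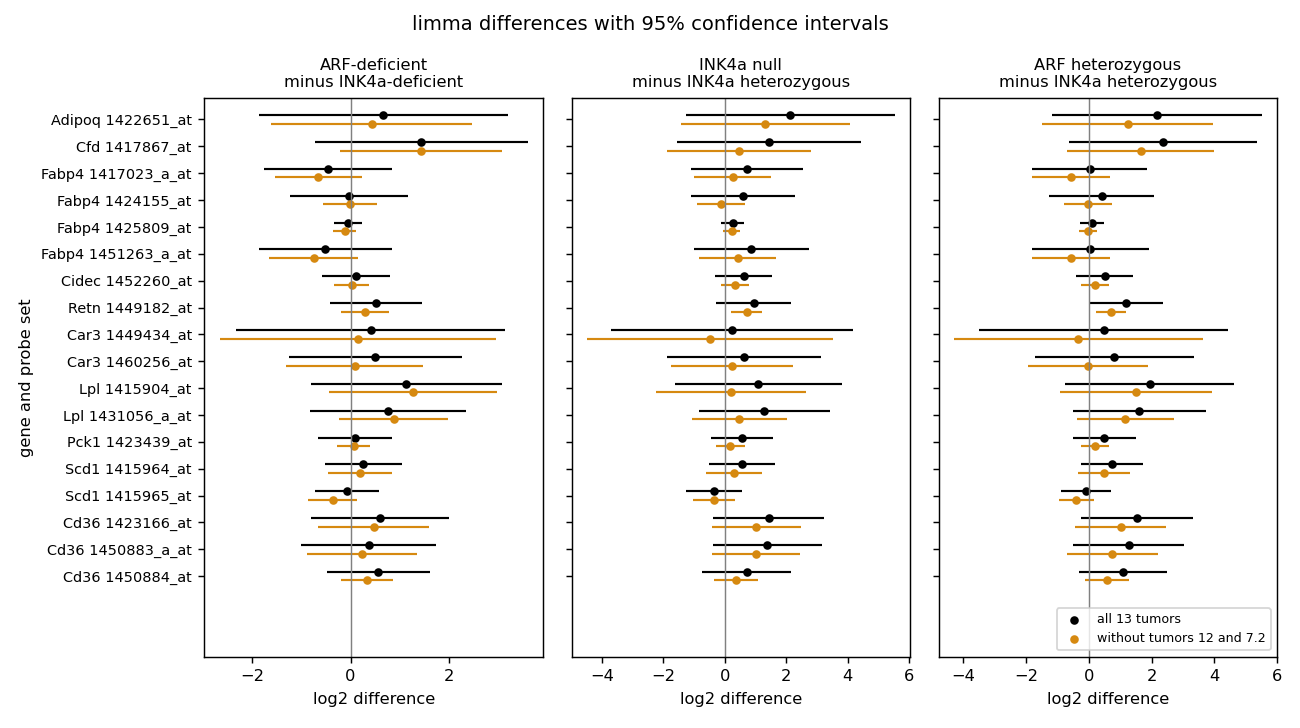
limma differences (points, log2) with 95% intervals (lines) for the 18 probe sets in the 3 comparisons, with all 13 tumors in black and without tumors 12 and 7.2 in orange. With all 13 tumors every interval spans 0 except that of Retn between the heterozygous groups, whose lower bound is 0.01.

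The arrays also differed in a sign of RNA quality, the beta-actin ratio (3′ control probe set minus 5′ control probe set), which grows when RNA is degraded. It was 0.81 in tumor 12 and 0.94 in tumor 7.2, the tumors richest in adipocyte transcripts, but it was highest in tumors 13 (1.49) and 9 (1.09), whose adipocyte levels were 0.60 and 0.18. INK4a null 3 and 2.2 were at 0.38 and 0.14, and the other 7 tumors lay between -0.54 and -0.04. Among these, INK4a heterozygous 15, 5.2 and 6.2 were at -0.39, -0.46 and -0.37, and ARF heterozygous 14 and 8 at -0.04 and -0.36. The ratio was thus partly aligned with the genotype groups. In the fits with the ratio as covariate, ratio and group cannot be fully told apart. The same difference for the Gapdh controls placed tumor 7.2 otherwise. It was 1.41 in tumor 13, 0.38 in tumor 12, 0.23 in tumor 9 and -0.07 in tumor 7.2. INK4a null 3 and 2.2 were at -0.01 and -0.18 for Gapdh, and the other 7 tumors between -0.74 and -0.47. The Gapdh difference was not used as a covariate. The beta-actin 3′ probe set itself was at -0.84 in tumor 12, -0.65 in tumor 7.2, -1.24 in tumor 13 and -0.87 in tumor 9.

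Over the 13 tumors the beta-actin ratio went with several members (10 relations, two-sided, adjusted over the 10). For Adipoq r was 0.72 (permutation p = 0.00538, adjusted p = 0.0179) and rho 0.75 (p = 0.00374). For Cfd r was 0.80 (permutation p = 0.00091, adjusted p = 0.00455), and for Lpl r was 0.79 (permutation p = 0.00074, adjusted p = 0.00455). Retn and Pck1 were both at r = 0.67 (adjusted permutation p = 0.0225 and 0.0244), Cd36 at 0.65 (0.0244) and Scd1 at 0.62 (0.0308). Over all 13 tumors, Fabp4, Car3 and Cidec were at r = 0.55 (permutation p = 0.0493), r = 0.55 (permutation p = 0.0516) and r = 0.54 (permutation p = 0.0532). The adjusted p was 0.0532 for each of these. Without the 2 tumors farthest from the median ratio, 13 and 9, r was 0.90 for Adipoq, Cfd and Pck1, 0.92 for Lpl and 0.91 for Cidec. It was 0.85 for Retn, 0.79 for Car3, 0.77 for Fabp4, 0.74 for Cd36 and 0.66 for Scd1. Within the ARF-deficient tumors r ran from 0.29 (Cidec) to 0.70 (Scd1). Within the INK4a-deficient tumors r ran from 0.51 (Scd1) to 0.91 (Cfd), and the difference between the genotypes was not tested. Whether RNA quality itself changed the adipocyte values was not tested, and markers of muscle, endothelium, macrophages and sebaceous glands are not analysed here.

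**Figure D5:**
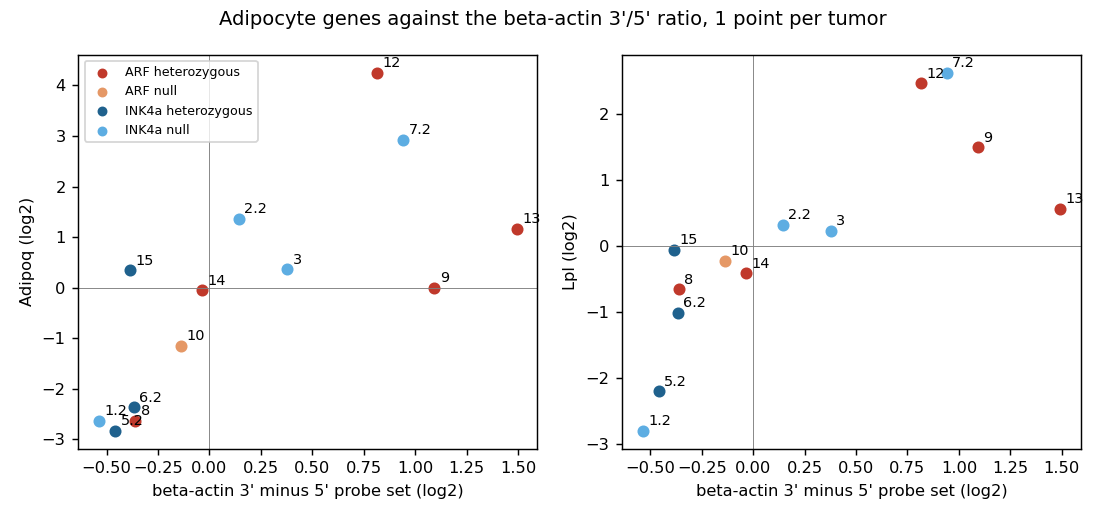
Adipoq (left) and Lpl (right), as log2 relative to the median tumor, against the beta-actin 3′ minus 5′ difference (log2), with 1 point per tumor colored by genotype label. Tumors 13 and 9 have the highest ratios (1.49 and 1.09) without the highest Adipoq or Lpl values, and tumors 1.2, 5.2, 6.2 and 8 are low on both axes.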

How the data were processed

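RNA of 13 cutaneous melanomas, extracted with Trizol, was hybridized as biotinylated cRNA to 13 Affymetrix mouse arrays, 1 per tumor. Values deposited by the authors, read here as log2 although the base is not stated, had been produced with GeneSpringGX for 22690 probe sets. Every one of the 22690 probe sets has a median of 0 over the 13 arrays, so levels are lost. The summarization and the normalization were not given in the sources used here. Array medians lay between -0.05 and 0.05, and the number of arrays limits the precision. A deposited list of 122 probe sets with signed scores, which holds 0 of the 18 members, was not used.

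The 18 probe sets were taken by identifier, and both they and all lists were chosen with earlier results of these data known. Named genes are the 18 members by their 10 genes and the 2 other probe sets most correlated with Adipoq. Lists of further adipocyte genes and of other cell types are not analysed here, since the data do not pair identifiers with genes. Leaving out 64 Affymetrix control probe sets gave 22626. limma 3.58.1 under R 4.3.3 was the test of differences (lmFit, then eBayes without a variance trend, two-sided, Benjamini-Hochberg over all 22626, threshold 0.05): ARF-deficient against INK4a-deficient in 2 pooled groups, INK4a null against heterozygous in 3 groups, and the heterozygous groups in 4. The script was tested on simulated data. As the methods name a Mann-Whitney test, it was run exactly over the 1716 splits into 6 and 7. Correlations (scipy 1.17.1, numpy 2.4.6) have p-values from 100000 permutations, which were added after the values were seen. Alternatives covered the variance trend, normalization, array weights, the beta-actin ratio, zygosity, label endings, the groups in the fit and leaving out each tumor.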

Additional observations from a re-analysis of the deposited data

Results flagged for a closer look

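In 7 of the 44 sets of values examined (each gene, and the level over the 10 genes, in each group of 4 to 7 tumors), 1 tumor stood apart from its group by Dixon's criterion. Chance alone marks about 1 in 20 such sets, here 2.2, and the sets overlap because genes go together and groups share tumors. Each of the 7 involved ARF heterozygous 12 or INK4a null 7.2. Fabp4 in INK4a null 7.2 was at 1.66, both among the INK4a-deficient tumors, where the next was 0.26, and among the INK4a null tumors, where the next was 0.09. Cidec in ARF heterozygous 12 was at 1.50, with the next at 0.22, among the ARF-deficient and among the ARF heterozygous tumors. Retn in tumor 12 was at 2.52 among the ARF-deficient tumors, with the next at 0.64. Pck1 in tumor 7.2 was at 1.60 among the INK4a-deficient tumors, with the next at 0.28. The level over the 10 genes was 1.62 in tumor 7.2 among the INK4a null tumors, with the next at 0.08.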

How the results depend on the processing

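Over 62 alternatives of the 3 comparisons, 0 gave a member past the adjusted threshold; the smallest adjusted p of a member was 0.138, against 0.379 in the fits reported. Adjusted for the beta-actin ratio, the median difference of the members turned to -0.17 for ARF-deficient minus INK4a-deficient and to -0.15 for ARF heterozygous minus INK4a heterozygous; 2 and 0 members had an unadjusted p under 0.05; Adipoq turned to -0.65 in the first and -0.28 in the second, Car3 1449434_at to -0.71 and Cd36 1423166_at to -0.045 in the first, and Cfd to -0.12 in the second. INK4a null minus heterozygous kept its sign, with a median of 0.078. Between ARF-deficient and INK4a-deficient tumors, Car3 1449434_at turned to -0.091 with quantile normalization and -0.70 with only tumors whose label number has no decimal ending, where Adipoq turned to -0.092. Every decimal ending belongs to an INK4a-deficient tumor. That fit therefore set the 6 ARF-deficient tumors against INK4a heterozygous 15 and INK4a null 3 alone, and label ending and genotype cannot be told apart. The cause of these sign changes was not tested.

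Leaving out each tumor, this median ran from -0.14 (without tumor 12) to 0.68, Adipoq from -0.13 to 1.25, Car3 1449434_at from -0.35 to 1.26 (-0.22 without tumor 12), and the members at an unadjusted p under 0.05 from 0 to 2. That count was also 0 to 2 for INK4a null against heterozygous, and 1 with quantile normalization, array weights, the INK4a arrays alone or, chosen after seeing the data, without tumors 12 and 7.2. Between the heterozygous groups it was 0 with array medians set to 0 and with the heterozygous arrays alone, and 0 to 5 leaving out each tumor, 5 without ARF heterozygous 8. Of the tumor levels, INK4a null 1.2 was at -1.15 as a mean over the genes, and quantile normalization turned the order of the top pair, with tumor 12 at 1.48 (from 2.49) and tumor 7.2 at 1.94 (from 1.62). At a threshold of 2, 1 tumor was raised in place of 2. No paired analysis was possible because no label number recurs between groups. Signal over background is lost with the centering, so dim probe sets could not be set apart.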
